A study of Mus musculus with 7 samples.

Results

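Genes for collagens, laminin chains, nidogens, fibronectin and fibrillins were followed in RNA-seq data from the tail end of E9.5 mouse embryos with and without Smchd1. Members were all rows whose symbol names a collagen chain or a laminin alpha, beta or gamma chain, together with Fn1, Fbn1, Fbn2, Nid1 and Nid2, provided that the deposited log2 value was above 0 in 3 or more libraries. Of 25965 rows listed, 59 matched these names and 47 passed the filter, out of 13997 genes that passed it in all. The groups were 3 wild-type libraries (genotype Smchd1 +/+) and 4 libraries of genotype Smchd1 MommeD1/MommeD1, in which both copies of the gene are null. Smchd1 encodes a chromosomal protein with a known role in X inactivation. All embryos were female and of strain FVB/N, and the dissected piece lay behind the last somite that could be seen, a tissue named presomitic mesoderm in the title and postsomitic mesoderm in the sample labels. The design text names 3 null samples, whereas 4 are labelled. Whether a library is 1 embryo is not stated, so a p-value reflects the variation among libraries, which may be technical. Libraries carry a letter within each genotype, in file order, because the column names give the genotype but not the sample number.

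Extracellular matrix is built from proteins that cells secrete and assemble outside the membrane. Laminin heterotrimers and collagen IV form the sheets of basement membranes, which nidogens link together. Fibrillar collagens give tensile strength to mesenchyme, and fibronectin and fibrillins form fibrils that bind integrins and hold growth factors. In the posterior embryo, fibronectin around the presomitic mesoderm is needed for somites to form, and laminin sheets surround the neural tube, gut, notochord and surface ectoderm.

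The deposited values are log2 RPM, the reads of a gene scaled to a common library size, and each is given here after subtracting the library's median over autosomal genes, which is called the centred value. A centred value of 0 is therefore the level of a typical autosomal gene, and differences are on the log2 scale. Reads in listed genes numbered 19.6 to 23.8 M per library. In null libraries member genes took 0.627% ± 0.0427 of them (SD, n = 4), and the wild-type share was 0.644% ± 0.0333 (SD, n = 3). Smchd1 itself fell by 1.67 in null tissue (SE 0.07, limma adjusted p = 9.54e-05), with 1922 to 2372 reads against 5572 to 6552. Of 12 markers of presomitic mesoderm and tailbud, 11 passed the filter, among them Tbx6 with 2211 to 3199 reads. Wild-type library B stood apart in some of them, with 118 reads of Wnt3a and 200 of Cyp26a1. The other libraries had at least 1102 and 2033. Not all of the list was low there, since Dll1 and Dll3 had their highest centred values in wild-type B, 2.69 and 1.61.

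Per kilobase of exon, fibronectin was the most abundant member. Levels between genes are given as RPM scaled to the common autosomal median, per kilobase of merged exons in GENCODE M21. The annotation used for counting is not stated, so the order of genes depends on this merged length. It was 12.4 kb for Col1a2 and 6.56 kb for Col1a1. Null tissue had 24.5 ± 0.8 of Fn1 (SD, n = 4), and wild-type tissue had 25.6 ± 1.21 (SD, n = 3). Col4a1, the main chain of basement membrane collagen, followed at 18.3 ± 1.29 and 19 ± 1.37. Col18a1, a proteoglycan collagen of basement membranes and the source of endostatin, stood at 17.3 ± 0.528 and 18.9 ± 1.2. Lamc1, the gamma chain of most laminins, stood at 15.8 ± 0.531 and 15 ± 1.6, and Col4a2 at 15.3 ± 1.49 and 15 ± 1.17. Library ranges overlapped between Col4a1 and Col18a1, between Col18a1 and Col4a2, and among Lamc1, Col4a2 and Nid2. The order within each of these sets is not resolved. At the other end Col20a1 was at 0.189 ± 0.0209 and 0.147 ± 0.0333. By mean level the basement membrane core and fibronectin thus led the order, with the fibrillin Fbn2 in place 9. Col1a1 was the first fibrillar chain by mean, in place 11 of 47, but ran from 4.51 to 16.8 over the libraries. Col2a1 lay above Col1a1 in null D and wild-type B, so the order of fibrillar chains is not resolved.

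**Figure D1:**
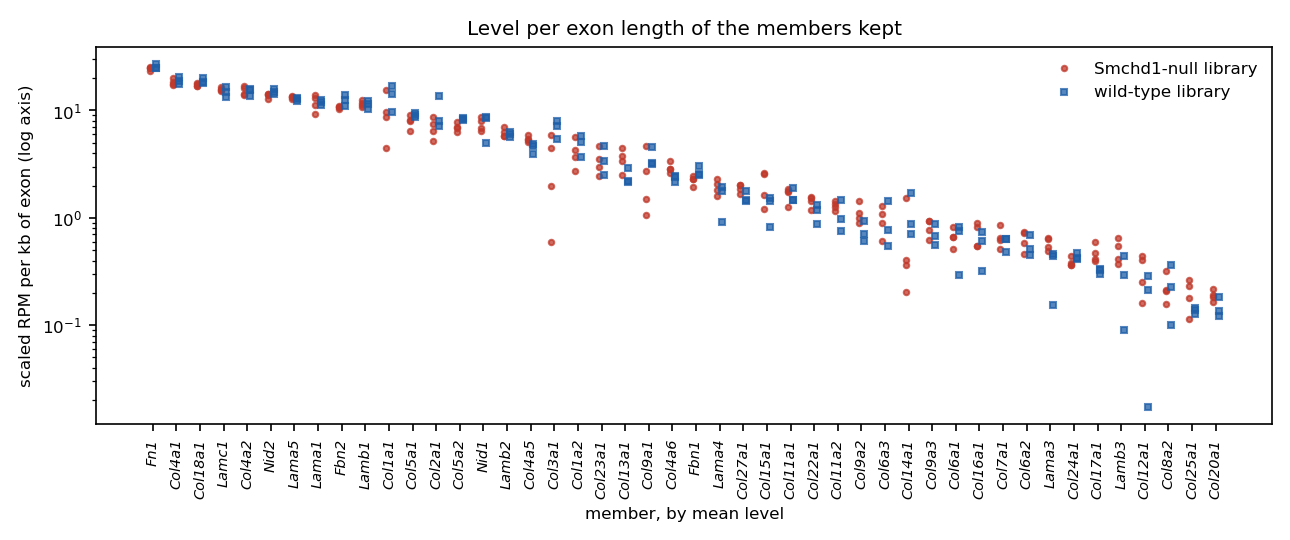
Level of the members in every library, in scaled RPM per kilobase of exon on a log axis, ordered by mean level. Circles are the 4 null and squares the 3 wild-type libraries. Fn1 leads and Col20a1 is last, and the points of 1 gene spread most for Col3a1, Col14a1 and Col12a1.

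No member passed an adjusted p of 0.05 between null and wild-type tissue. Limma called 0 of 47 members higher and 0 lower on centred values. Over all 13997 genes the same rule called 0.05% higher and 0.00714% lower. The smallest member adjusted p was 0.306, for Col5a2. At an unadjusted p under 0.05, 9 members were higher and 4 lower, or 19.1% and 8.51%, against 7.29% and 6.71% of all genes tested. With limma-voom on recovered reads the unadjusted counts were 9 and 5, with 0 called after adjustment. On the deposited scale, where the median change of all genes was 0.16, these counts were 16 and 1 for members and 1948 and 16 for all genes, against 1020 and 939 after centring. Leaving out null library B, C or D gave 5 higher members each, with 599, 804 and 726 higher over all genes. Leaving out null C gave 9 lower members, with 673 lower over all genes. In the limma fit on centred values of all 7 libraries, members higher at an unadjusted p under 0.05 included Col4a5, Col4a6, Col9a2, Col13a1, Col17a1, Col22a1, Col27a1 and Lama3. Those lower were Col5a2, Col18a1, Fbn1 and Fbn2. All these members were measured in the same 7 libraries and are not independent of each other. In this bulk tissue, fewer cells of a type and less RNA per cell cannot be told apart.

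The median change of the 47 members was 0.08, against -0.03 over all genes tested, and 63.8% of members against 42.5% of all genes lay above 0. Members varied more between libraries of 1 genotype than other genes did. The median within-group SD was 0.29 for members and 0.12 for all genes tested, or 0.14 and 0.08 among genes whose mean log2 RPM was 4 or more. Across the 7 libraries 19 members spanned more than 1 log2 unit and 12 less than 0.5. Wild-type library B held the lowest value of 21 members, and null library D that of 10.

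**Figure D2:**
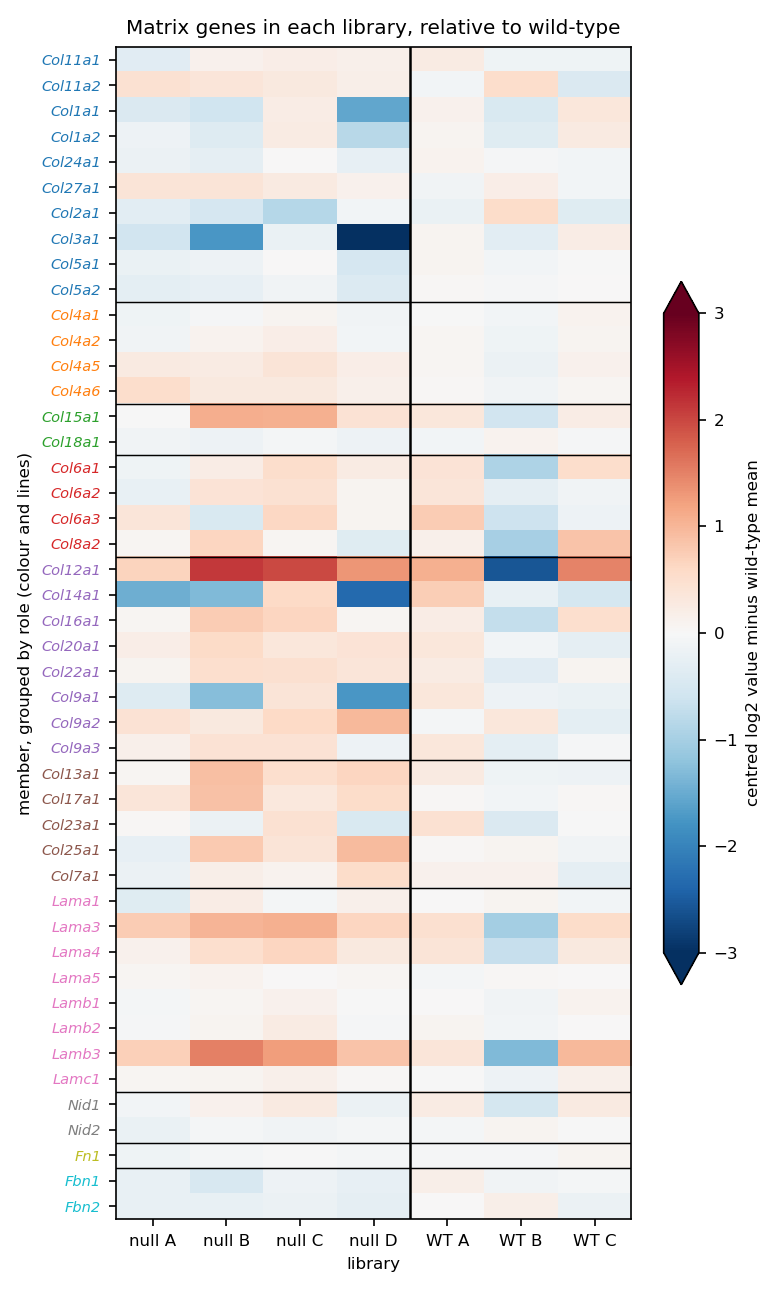
Centred log2 value of the members in every library, minus the wild-type mean of that gene, with members grouped by role. Colours are limited to 3 units in either direction. Wild-type B is blue in Lama3 and Lamb3 and pulls down their wild-type mean, so the other libraries of both genotypes are red. Col3a1, Col1a1, Col9a1 and Col14a1 are bluest in null D.

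**Figure D3:**
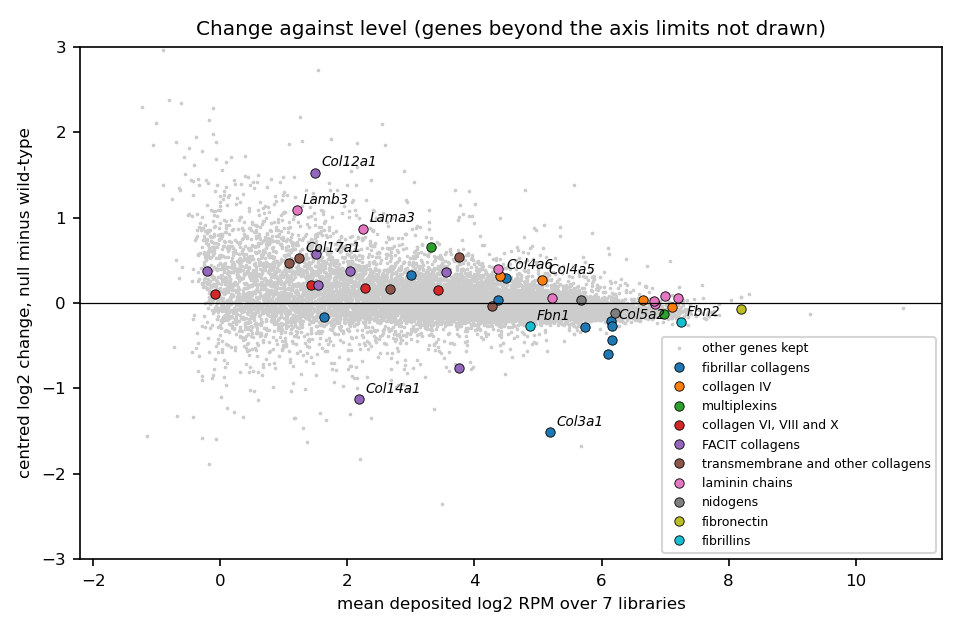
Centred log2 change, null minus wild-type, against the mean deposited log2 RPM over the 7 libraries. Grey points are other genes tested and coloured points the members by role. Members with high levels, such as Fn1 and the main laminin chains, lie near 0, and the widest changes belong to Col12a1, Lamb3, Col14a1 and Col3a1.

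Fibrillar collagens are the rod-like chains of tendon, skin, cartilage and early mesenchyme. Of 11 listed, 10 were kept, and 7 of these had a change below 0, with a median of -0.24. Col3a1, the chain of reticular fibres, on chromosome 1 from 45311538 to 45349706 (mm10), had the widest negative change. Its centred values were 1.41, 0.24, 1.80 and -1.51 in null libraries A to D and 2.09, 1.67 and 2.23 in wild-type libraries A to C. Null D and null B were low, and null C lay within the wild-type range. The change was -1.51 (SE 0.69, limma adjusted p = 0.355), or -0.85 without null library D.

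Col1a1, the main chain of collagen I, showed the same order of null libraries. It stood at 1.95, 1.79, 2.61 and 0.84 in null and 2.51, 1.93 and 2.73 in wild-type libraries. Its partner Col1a2 stood at 1.68, 1.47, 2.09 and 1.02 against 1.93, 1.48 and 2.11. In both genes null D was lowest and null C and wild-type C were highest. The change was -0.59 for Col1a1 (SE 0.37, limma adjusted p = 0.425) and -0.28 for Col1a2 (SE 0.24, limma adjusted p = 0.542). Without null library D these values were -0.27 and -0.10.

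Col5a1 and Col5a2 encode the chains of collagen V, which nucleates collagen I fibrils. Col5a2 stood at 1.98, 2.02, 2.17 and 1.85 in null against 2.30, 2.23 and 2.27 in wild-type libraries, so that every null library lay below every wild-type library. Null tissue had 0.833 of the wild-type level, a change of -0.26 (SE 0.07, limma adjusted p = 0.306). Col5a1 stood at 2.02, 2.06, 2.23 and 1.71 against 2.29, 2.15 and 2.22, and its groups overlapped. Its change was -0.21 (SE 0.11, limma adjusted p = 0.372), or -0.11 without null library D. The difference between these partners stayed within -0.15 to 0.06 in all 7 libraries. Col3a1 and Col5a2 point toward each other on chromosome 1 with 24.6 kb between their ends. They differed in spread, with a span across libraries of 0.45 for Col5a2 and 3.73 for Col3a1.

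Col2a1, the collagen of cartilage, notochord and sclerotome, stood at 2.06, 1.86, 1.52 and 2.29 in null and 2.16, 2.93 and 2.01 in wild-type libraries. Wild-type B was highest and null D second. The change was -0.44 (SE 0.24, limma adjusted p = 0.389), or -0.15 without wild-type B. The summed level of 8 somite and sclerotome markers, 4 of which passed the filter, was highest in the same libraries, at 90.5 scaled RPM in wild-type B and 70.8 in null D against 28.5 to 44.6 in the others. That sum followed Meox1 and Tcf15, somite genes, whereas the sclerotome gene Pax9 was lowest in wild-type B, with 28 reads against 193 to 836 elsewhere. Pax1, also of the sclerotome, had at most 2 reads in any library. Markers of the notochord, which also makes Col2a1, lay higher in null tissue, with 7 of 7 changes above 0. Their summed level was 108 to 142 against 59.8 to 104, lowest in wild-type B. Most reads in it were of T, also a tailbud marker, with 2059 reads in wild-type B against 4277 to 6692 elsewhere. Foxa2 and Nog were lowest in wild-type A instead. The part of either list in the Col2a1 values was not tested. Of the remaining fibrillar chains, Col27a1 had a change of 0.29 (limma adjusted p = 0.352), and Col11a1, Col11a2 and Col24a1 ranged from -0.16 to 0.33.

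Collagen IV forms the network of basement membranes. The broadly expressed chains Col4a1 and Col4a2 did not pass the test. Col4a1 stood at 2.96, 3.06, 3.17 and 2.98 in null and 3.07, 3.00 and 3.21 in wild-type libraries, with a change of -0.05 (95% interval -0.20 to 0.10). Col4a2 stood at 2.48, 2.69, 2.77 and 2.50 against 2.64, 2.45 and 2.65, with a change of 0.03 (95% interval -0.16 to 0.22). The genes lie head to head on chromosome 8, with deposited spans that overlap by 22 bases. Their difference stayed between 0.38 and 0.56 log2 units in all 7 libraries.

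The other pair of the family, Col4a5 and Col4a6, is on the X chromosome and lay above wild-type in every null library. These chains form a second collagen IV network, in kidney and in smooth muscle and skin basement membranes. Col4a5 (chromosome X, 141475385 to 141689234) stood at 1.13, 1.10, 1.25 and 1.05 in null against 0.91, 0.68 and 0.98 in wild-type libraries. Its change was 0.27 (SE 0.08, limma adjusted p = 0.333), or 1.21-fold. Col4a6 (chromosome X, 141165403 to 141474076) stood at 0.70, 0.47, 0.45 and 0.32 against 0.20, 0.06 and 0.23. Its change was 0.32 (SE 0.09, limma adjusted p = 0.33), or 1.25-fold. Among the X-linked genes tested, 32.5% lay higher in every null library, against 6.51% of all genes, and the median X-linked change was 0.15. Without wild-type B, whose values were lowest, the changes were 0.18 and 0.27.

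Column names end in the number 18, 21 or 22, whose meaning the sources used here do not give, and each number occurs in both genotypes. Null minus wild-type within these numbers was 0.44, 0.07 and 0.26 for Col4a5 and 0.64, 0.09 and 0.25 for Col4a6. Both genes lay above wild-type within each number, least so within number 21. Over all members, 14 lay above 0 within each number, 10 below 0 within each, and 23 differed in sign between numbers. The first 2 counts are 29.8% and 21.3% of members, against 18.1% and 25.2% of all genes tested.

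The start sites of Col4a6 and Col4a5 face away from each other across 1308 bases, and the stretch before each start is shown because these are neighbouring genes among the 4 members that lay higher in every null library. Each stretch runs from 250 to 35 bases before the RefSeq start (GRCm38.p6), 5′ to 3′ on the strand of the gene, with capitals marking a CCAAT match on either strand.
Col4a6, chrX:141474111-141474326, minus strand: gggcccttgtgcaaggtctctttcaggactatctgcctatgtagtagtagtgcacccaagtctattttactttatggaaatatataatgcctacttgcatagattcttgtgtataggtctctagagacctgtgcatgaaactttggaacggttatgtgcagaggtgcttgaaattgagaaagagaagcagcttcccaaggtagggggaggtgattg
Col4a5, chrX:141475169-141475384, plus strand: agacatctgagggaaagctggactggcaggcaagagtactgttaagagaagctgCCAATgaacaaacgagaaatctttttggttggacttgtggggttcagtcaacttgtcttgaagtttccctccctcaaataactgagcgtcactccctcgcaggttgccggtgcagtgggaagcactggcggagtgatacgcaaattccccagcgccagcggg
The Col4a5 stretch held 1 CCAAT match and the Col4a6 stretch 0. Of 32851 RefSeq windows of this length, 30.5% held CCAAT on either strand, 27.9% GGGCGG and 9.80% TATAAA. Neither stretch held GGGCGG or TATAAA. All these windows end 35 bases before the start, so they cannot show whether a TATAAA lies closer to it. The Col4a5 stretch had 8 CpG and a GC content of 52.3%, and the Col4a6 stretch 1 CpG and 43.5%, against medians of 5 and 51.9% over these windows.

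**Figure D4:**
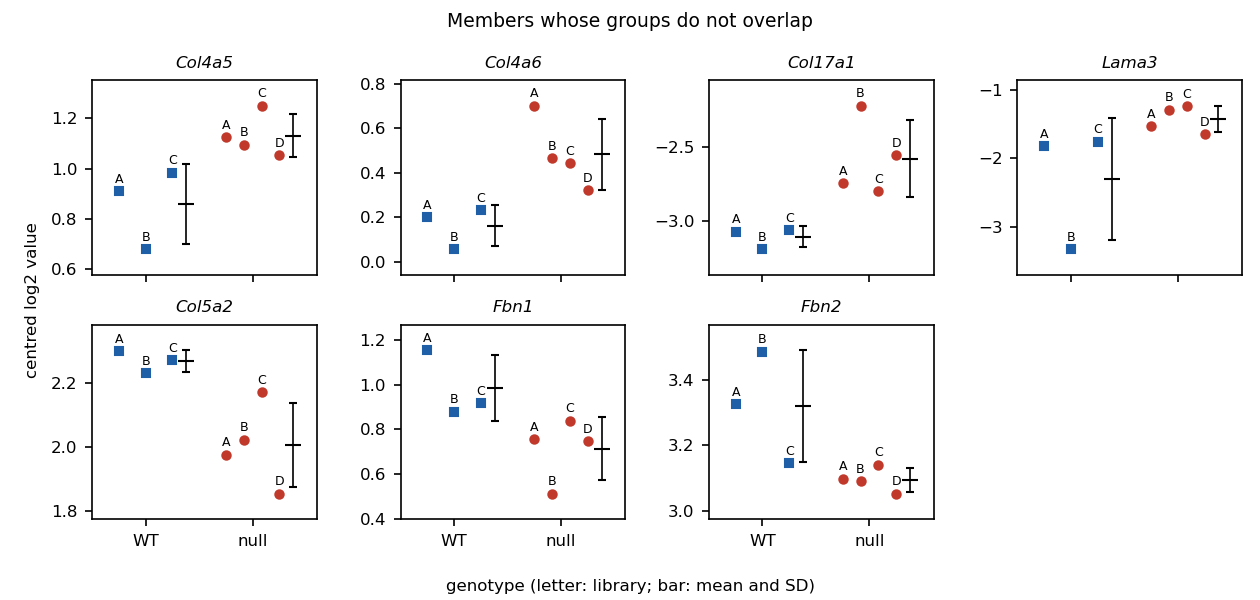
Centred log2 value of the 7 members whose null and wild-type libraries did not overlap, with 1 panel per gene, letters for libraries and bars for mean and SD. Col4a5, Col4a6, Col17a1 and Lama3 lie higher in null tissue and Col5a2, Fbn1 and Fbn2 lower. Wild-type B is far below the other libraries for Lama3.

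The multiplexins Col15a1 and Col18a1 are basement membrane collagens that carry sugar chains. Col18a1 stood at 2.89, 2.84, 2.93 and 2.84 in null and 2.92, 3.10 and 2.97 in wild-type libraries. Null C was just above wild-type A, and the change was -0.12 (SE 0.05, limma adjusted p = 0.352). On the deposited scale, without centring, it was 0.07. Col15a1 had a change of 0.65 (SE 0.31, limma adjusted p = 0.361) and was lowest in wild-type B, without which the change was 0.37.

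Collagen VI makes beaded filaments in connective tissue, and collagen VIII a network under endothelium. Of 9 listed chains of collagen VI, VIII and X, 4 were kept. Col6a1 stood at -2.87, -2.52, -2.22 and -2.51 in null and -2.34, -3.68 and -2.22 in wild-type libraries. Col6a2 stood at -2.10, -1.47, -1.43 and -1.78 against -1.52, -2.13 and -1.97. Col6a3 stood at -0.34, -1.18, -0.09 and -0.62 against 0.06, -1.34 and -0.86. All 3 were lowest in wild-type B, and the changes of 0.21, 0.18 and 0.16 were each smaller than their SE. Without wild-type B, Col6a1 had a change of -0.25 and Col6a3 one of -0.15.

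FACIT collagens sit on the surface of fibrils and do not form fibrils alone. Of 9 listed, 8 were kept, with changes from -1.13 to 1.53 and a median of 0.37. Col14a1, found in embryonic connective tissue, stood at -2.69, -2.54, -0.62 and -3.55 in null and -0.49, -1.43 and -1.74 in wild-type libraries. Null A, B and D lay below all wild-type libraries, whereas null C did not, and the change was -1.13 (SE 0.62, limma adjusted p = 0.392). Col9a1, a chain of collagen IX of cartilage and notochord, stood at -0.25, -1.13, 0.52 and -1.61 against 0.49, -0.01 and -0.05. Its change was -0.76 (SE 0.45, limma adjusted p = 0.41). Without null library D the change was -0.73 for Col14a1 and -0.43 for Col9a1.

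The partners of Col9a1 were ordered differently over the libraries. Col9a2 stood at -2.43, -2.58, -2.27 and -1.89 in null and -2.93, -2.52 and -3.15 in wild-type libraries. It was highest in null D, the library lowest for Col9a1, and its change was 0.58 (SE 0.22, limma adjusted p = 0.352). Col9a3 stood at -2.48, -2.20, -2.21 and -2.79 against -2.30, -2.93 and -2.66, with a change of 0.21. The difference between Col9a1 and Col9a2 ran from 0.28 to 3.42 log2 units across libraries. For Col4a1 and Col4a2, or for Col5a1 and Col5a2, the corresponding range was under 0.5.

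Col12a1, which binds collagen I fibrils, had the highest change of any member, 1.53 (SE 0.89, limma adjusted p = 0.407). It stood at -2.76, -1.31, -1.44 and -2.10 in null and -2.37, -5.98 and -1.93 in wild-type libraries. The change rested on wild-type B, which had 15 reads against 165 to 467 in the others. Without that library it was 0.25.

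Null D, which was lowest for Col3a1, Col1a1, Col14a1 and Col9a1, also had the lowest summed level of lateral plate markers. Of 6 such genes sought, 5 were found and kept, all 5 with a change below 0. Their summed level was 38.7 scaled RPM in null D and 53.2 in null B, against 86.2 and 104 in null A and C and 72.5 to 103 in wild-type libraries. Hand1, Hand2 and Prrx1 were lowest in null D, whereas Gata4 and Osr1 were lowest in null B. All 5 had reads, and their part in the collagen values was not tested. Postn, a matrix protein of mesenchyme, was also lowest in null D, with 84 reads against 290 to 2784. Its change of -2.36 (limma adjusted p = 0.352) was the lowest among the partner genes. Wild-type C, highest for Postn, Col1a1, Col1a2 and Col3a1, also had the highest summed level of 6 extraembryonic endoderm markers, of which 1 passed the filter. That sum was 51.4 scaled RPM in wild-type C and 3.85 to 8.73 in the other libraries. Afp, in that list, had 1203 reads there and at most 85 elsewhere. Without wild-type C the change was -1.39 for Col3a1 and -0.42 for Col1a1. The part of this list was not tested.

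**Figure D5:**
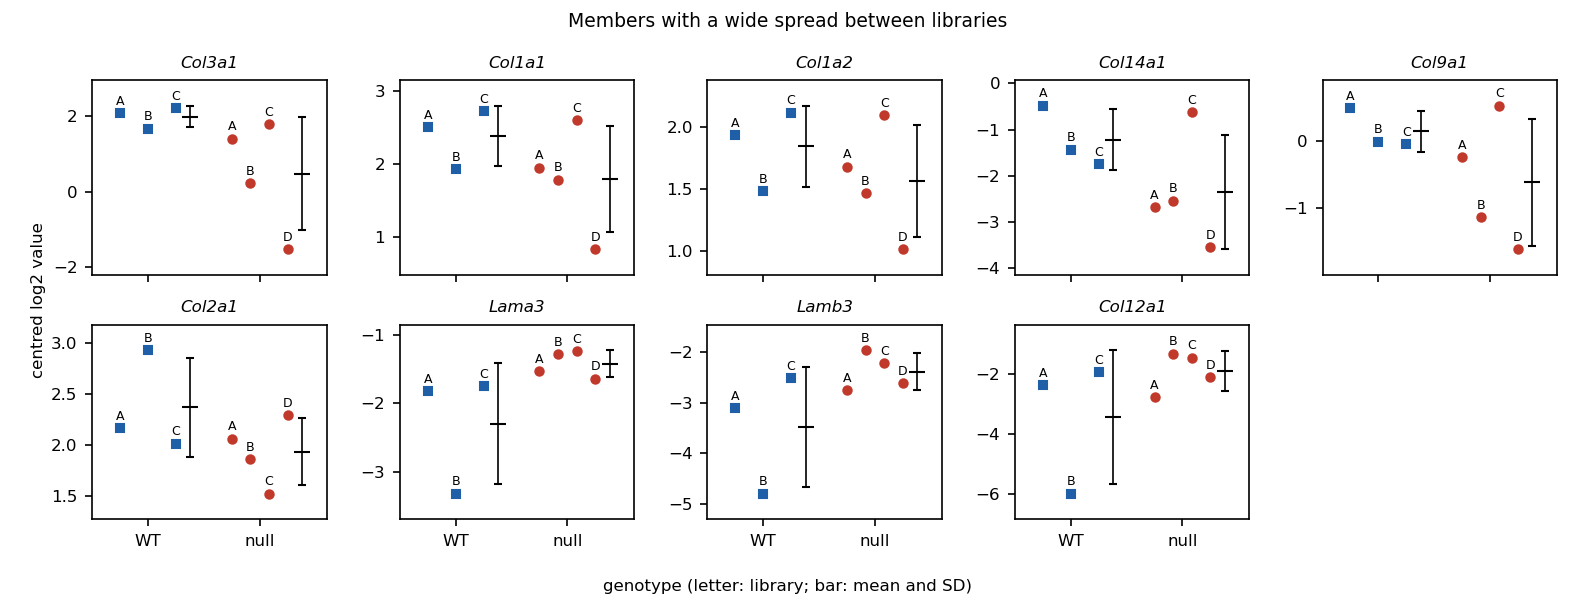
Centred log2 value of 9 members with a wide spread between libraries, with 1 panel per gene, letters for libraries and bars for mean and SD. Null D is lowest for Col3a1, Col1a1, Col1a2, Col14a1 and Col9a1. Wild-type B is lowest for Lama3, Lamb3 and Col12a1 and highest for Col2a1.

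Among transmembrane and other collagens, Col17a1 lay above wild-type in every null library. It encodes the hemidesmosome collagen that anchors epithelial cells to their basement membrane. It stood at -2.75, -2.23, -2.80 and -2.56 in null and -3.07, -3.19 and -3.06 in wild-type libraries, with 155 to 247 reads against 104 to 135. The change was 0.52 (SE 0.18, limma adjusted p = 0.352), or 1.44-fold. Col13a1, a collagen of cell adhesion sites, had a change of 0.53 (SE 0.19, limma adjusted p = 0.352). Col7a1, Col23a1 and Col25a1 ranged from -0.04 to 0.47.

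Laminin chains differed in spread. The broadly expressed chains Lama5, Lamb1 and Lamc1 spanned 0.16 to 0.31 log2 units over the 7 libraries. Lama5 stood at 3.19, 3.22, 3.13 and 3.19 in null and 3.06, 3.17 and 3.14 in wild-type libraries, with a change of 0.06 (95% interval -0.03 to 0.15). Lamb1 stood at 2.69, 2.81, 2.89 and 2.74 against 2.77, 2.64 and 2.86. Its change was 0.03 (95% interval -0.12 to 0.18). Lamc1 stood at 2.96, 2.98, 3.04 and 2.92 against 2.89, 2.75 and 3.05, with a change of 0.08 (95% interval -0.08 to 0.24). The difference between Lamb1 and Lamc1 stayed between -0.27 and -0.10 in all libraries.

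Lama1, the alpha chain of early embryonic laminin, stood at 2.42, 3.02, 2.72 and 2.95 in null and 2.80, 2.87 and 2.70 in wild-type libraries. Null A was lowest and null B highest, and the change was -0.01 (95% interval -0.31 to 0.28). Lama1 ends 3.52 Mb from Smchd1 on chromosome 17. Of the other chains, Lama4, of vascular basement membranes, had a change of 0.40 (SE 0.25, limma adjusted p = 0.427) and was lowest in wild-type B, without which the change was 0.056. The summed level of 8 endothelial markers was also lowest there, at 154 scaled RPM against 217 to 292 in the others, and its part was not tested. Lamb2 had a change of 0.06.

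Lama3 and Lamb3 encode an alpha and a beta chain of epithelial basement membranes. Lama3 stood at -1.53, -1.29, -1.24 and -1.64 in null and -1.82, -3.32 and -1.75 in wild-type libraries. Its groups did not overlap, and the change was 0.87 (SE 0.35, limma adjusted p = 0.352). Lamb3 stood at -2.75, -1.96, -2.21 and -2.61 against -3.10, -4.80 and -2.51, and its change was 1.09 (SE 0.49, limma adjusted p = 0.354). Wild-type B was lowest for both chains, with 34 reads of Lamb3 against 132 to 296 elsewhere. Without that library the changes were 0.36 for Lama3 and 0.43 for Lamb3.

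Hindgut markers also had their lowest summed level in wild-type B. Of single genes, Krt8 and Krt18 were lowest in null D and Foxa2 in wild-type A. The summed level of 8 hindgut markers, all kept and all with reads, was 88.4 scaled RPM there, 120 and 139 in the other wild-type libraries and 122 to 145 in null libraries. Of these markers 6 had a change above 0, among them Cdh1, which encodes E-cadherin, at 0.62 (limma adjusted p = 0.352). Their part in the laminin values was not tested.

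Nidogens connect laminin with collagen IV. Nid1 stood at 1.52, 1.74, 1.86 and 1.43 in null and 1.85, 1.06 and 1.87 in wild-type libraries. Its change was 0.04 (95% interval -0.41 to 0.49). Nid2 stood at 2.01, 2.16, 2.11 and 2.15 against 2.16, 2.29 and 2.21, with a change of -0.11 (95% interval -0.23 to 0.01). Nid1 was lowest in wild-type B and Nid2 highest there.

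Fibronectin differed little between libraries. Fn1 (chromosome 1, 71585523 to 71653171) stood at 4.04, 4.12, 4.16 and 4.12 in null and 4.13, 4.14 and 4.25 in wild-type libraries. The change was -0.07 (SE 0.04, limma adjusted p = 0.458), and its 95% interval ran from -0.17 to 0.04.

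Both fibrillins, which form the microfibrils that elastic fibres are laid on, lay below wild-type in every null library. Fbn1 (chromosome 2, 125300594 to 125507993) stood at 0.76, 0.51, 0.84 and 0.75 in null against 1.15, 0.88 and 0.92 in wild-type libraries. The change was -0.27 (SE 0.09, limma adjusted p = 0.352). Fbn2, the fetal fibrillin, on chromosome 18 from 58008623 to 58209926, stood at 3.10, 3.09, 3.14 and 3.05 against 3.33, 3.49 and 3.15. Its change was -0.22 (SE 0.07, limma adjusted p = 0.352). For Fbn2, null C was just below wild-type C, and without wild-type B the change was -0.14. In scaled RPM per kilobase, the Fbn2 level was 10.7 ± 0.271 in null (SD, n = 4) and 12.6 ± 1.47 in wild-type tissue (SD, n = 3). The Fbn1 level was 2.25 ± 0.211 and 2.71 ± 0.286.

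In all, 4 members (8.51%) lay higher in every null library and 3 (6.38%) lower, against 6.51% and 6.24% of all genes tested. The share of members was thus near that of all genes. The separation of the 3 lower members depended on centring. On the deposited scale the changes were -0.07 for Col5a2, -0.08 for Fbn1 and -0.03 for Fbn2, and none of the 3 was free of overlap. The 4 higher members stayed free of overlap there, with changes of 0.46 for Col4a5, 0.51 for Col4a6, 0.72 for Col17a1 and 1.06 for Lama3. Col9a2, Col27a1 and Lamb3 joined them, so that 7 members (14.9%) lay higher and 0 lower on that scale, against 7.02% and 0.0572% of all genes tested. Leaving out the centring raises the change of every gene by the same amount. The autosomal median was 3.86 in wild-type B and 3.78 in wild-type C, against 4.05 to 4.19 in the other libraries. This scale therefore cannot show that the higher members are more robust than the lower ones.

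Of 12 chains that failed the filter, 11 had no library above 0 on the deposited log2 scale, and Col4a3 had 2. Just inside the limit were Col8a2 and Col20a1, with 4 libraries above 0 each. Col20a1 passed through 3 null libraries and 1 wild-type library, and Col8a2 through 2 of each. Reads of Col4a4, the partner of Col4a3 in the glomerular network, numbered 3 to 9 per library, and those of Lama2, the muscle laminin chain, 8 to 36.

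Genes that process, bind or degrade these proteins were measured from 6 lists, of which 102 genes passed the filter. None was called higher or lower after adjustment, and 11 (10.8%) were higher and 3 (2.94%) lower at an unadjusted p under 0.05, against 7.29% and 6.71% of all genes. Without overlap 6 (5.88%) lay higher and 4 (3.92%) lower, against 6.51% and 6.24%. The median change was 0.03, against -0.03 over all genes. Of 11 elastic fibre partners, 3 (27.3%, against 6.51% of all genes) lay higher in every null library, which were Ltbp4 and Ltbp3, latent TGF-beta binding proteins, and Eln, the elastin gene. Their changes were 0.43 (limma adjusted p = 0.284), 1.00 (adjusted p = 0.33) and 0.67 (adjusted p = 0.352). Ltbp3 had 343 to 635 reads in null against 133 to 308 in wild-type libraries. Over all 11 elastic fibre partners, 5 changes lay above 0, and the median was -0.06. The fibrillins themselves lay on the other side from the 3 named partners, which were named because they lay higher. They lay on the same side as the median of the 11 partners.

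Of 26 collagen processing genes, 1 had an unadjusted p under 0.05. Adamts2, which removes the amino-terminal propeptide of fibrillar procollagen, had 55 to 193 reads in null and 147 to 380 in wild-type libraries. Its change was -1.47 (SE 0.48, limma adjusted p = 0.352), and it was lowest in null D, as Col3a1 and Col1a1 were. Plod3, a lysyl hydroxylase of collagen, had a change of -0.10 (limma adjusted p = 0.353). Of 25 receptors, the syndecans Sdc2 and Sdc1 had the smallest p, with changes of 0.33 and -0.16 (limma adjusted p = 0.352 for each). Of 13 proteases and inhibitors, Mmp11 had a change of 0.47 and the inhibitor Timp3 one of 0.24 (limma adjusted p = 0.352 for each). Of 14 basement membrane partners, Egflam, which encodes pikachurin, had a change of 0.47 (limma adjusted p = 0.349) and Frem2 one of 0.36 (adjusted p = 0.352). Of 13 other matrix proteins, Fbln7 had a change of 0.33 (limma adjusted p = 0.352), after Postn in order of p.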

How the data were processed

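RNA-seq of 7 libraries was deposited as 1 table. The authors' deposited values are log2 RPM, per the file headers. The tools named in the submitters' processing notes are edgeR, TopHat2 2.0.12 and bcl2fastq, with build mm10. For the counting tool, strand setting and annotation, nothing is stated in the sources used here. Without a known strand setting, reads of overlapping antisense genes cannot be told apart. Below 1000 reads, 100% of values converted to reads came within 0.01 of an integer. Genes with no read are listed at 0.9 read. A count of 0 allows up to 0.044 to 0.0507 RPM, at 3 reads, for counting error only.

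Genes with log2 above 0 in 3 or more of the columns were centred on each column's autosomal median. Genotype was tested over all 13997 genes with limma 3.58.1 in R 4.3.3, with a prior trend, two-sided, with Benjamini-Hochberg adjustment at 0.05. The fit was run on simulated data with planted shifts and noise drawn independently for each gene. Sets of genes that vary together between libraries were not simulated, so that run does not test the fit in this respect. Figures were drawn with matplotlib 3.10.9, and tables with pandas 2.3.3 on numpy 2.4.6 (Python 3.11.15). Promoter sequences are from RefSeq, GRCm38.p6, where 32 of the 47 members matched.

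The members, gene lists and tests were chosen with earlier results of these data known. A member that is counted but not named or plotted is not reported here. Values in every library are given for members without overlap, chains that assemble together, Col2a1, Col3a1, Col18a1, nidogens, fibronectin, fibrillins and the 2 highest and 2 lowest changes at a mean log2 of at least 1. From each partner list the 2 genes with the smallest p are named. Eln, Cdh1 and the members named with a single change were picked after their values were seen. Alternatives were other scalings, filters, a pseudocount of 1, priors, array weights, voom on recovered reads, a block on the last number of the column names and leaving out each library. A block on the first number and leaving out both libraries numbered 18 were added after seeing the data.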

Additional observations from a re-analysis of the deposited data

Results flagged for a closer look

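In the 4 null libraries Col11a1 had 1 library far from the others: its centred value was -0.053 in null A, against 0.42 to 0.50 in the other null libraries. Chance alone would mark about 1 in 20 genes in this way, and 1 of 47 members was marked.

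Among the rows below the filter, the groups of Col4a3 and Col5a3 did not overlap. Col4a3, a chain of the glomerular collagen IV network, had 45, 90, 70 and 47 reads in null libraries A to D and 42, 16 and 36 in wild-type libraries, a centred difference of 0.89. Col5a3 had 29, 32, 38 and 34 reads against 28, 15 and 12, a centred difference of 0.78. On the deposited scale the groups of both genes overlapped. Neither was called in the fit without a filter on low values (limma adjusted p = 0.29 for each).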

How the results depend on the processing

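No member and no partner gene was called under any of the 21 alternatives, and the smallest member adjusted p in any fit was 0.129. Of 9 members higher and 4 lower at an unadjusted p under 0.05, the deposited scale gave 16 and 1 (over all genes 1948 and 16), cyclic loess 2 lower (533), the block on the last number 7 lower (1482), the block on the first number 4 higher (864), and leaving out the libraries numbered 18 gave 2 lower (630), with counts over all genes in brackets. The block on the last number also gave 12 higher (1438), and centring alone gave 1020 higher and 939 lower over all genes. Leaving out 1 library gave 5 to 10 higher and 3 to 9 lower, with 5 higher without null B, C or D and 9 lower without null C. Over all genes, calls after adjustment numbered 7 higher and 1 lower, and 0 to 17 higher and 0 to 1 lower under the alternatives. The median change of members, 0.08, was 0.27 on the deposited scale, 0.0062 without wild-type B and 0.18 without wild-type A. Each of these moved by less than the SD of the member median between libraries of a group, 0.20. That SD is larger than the median change of 0.08 itself, so it cannot tell a kept change from a lost one.

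Of 47 members, 32 kept their direction in each fit that held them, 3 of these being absent from a fit with a stricter filter, and the 15 others had main changes of at most 0.21 in size. On the deposited scale the changes were 0.069 for Col18a1, 0.16 for Col23a1, 0.028 for Col24a1, 0.14 for Col4a1, 0.13 for Fn1, 0.18 for Lama1 and 0.081 for Nid2, all with the opposite sign to the centred values. Cyclic loess gave 0.033 for Col4a1, -0.13 for Col8a2, 0.038 for Fn1 and 0.064 for Lama1. Quantile normalization gave 0.042, -0.34 and 0.065 for Col4a1, Col8a2 and Lama1, and a pseudocount of 1 gave -0.08005 for Col8a2. Array weights gave -0.022 for Col6a1, -0.13 for Col6a3, -0.036 for Col8a2, 0.094 for Lama1 and -0.048 for Nid1. The block on the last number gave -0.017 for both Col11a1 and Nid1. The block on the first number gave -0.049 for Col4a2, -0.28 for Col8a2, 0.16 for Lama1, -0.0089 for Lamb1, -0.0013 for Lamb2 and -0.042 for Nid1. Without the libraries numbered 18 the values were -0.14 for Col6a1, -0.23 for Col6a3, -0.38 for Col8a2, 0.15 for Lama1 and -0.18 for Nid1. Leaving out 1 library gave -0.027 to 0.16 for Col11a1, -0.25 to 0.19 for Col23a1, -0.10 to 0.0058 for Col4a1, -0.035 to 0.074 for Col4a2, -0.25 to 0.48 for Col6a1, -0.15 to 0.54 for Col6a3, -0.40 to 0.52 for Col8a2, -0.094 to 0.10 for Lama1, -0.028 to 0.0804 for Lamb1 and -0.22 to 0.18 for Nid1. The cause was not tested. No paired analysis was possible because the columns carry no sample number from the labels, and the blocks above use numbers whose meaning is not known.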
